A study of Mus musculus with 10 samples.

Results

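The genes described are 5 inhibitors of cyclin-dependent kinases (*Cdkn1a*, *Cdkn1b*, *Cdkn2a*, *Cdkn2b* and *Cdkn2c*), the p53 gene *Trp53* itself, and 3 genes that p53 is known to switch on, *Mdm2*, *Ccng1* and *Bbc3*. They were chosen by symbol as genes of cell cycle arrest and culture stress, with earlier results of these data known. They make up 9 of the 39273 genes in the deposited table. All 9 had at least 10 counts over the 10 libraries and entered the test with 24410 genes in all. RNA-seq libraries were available for 5 groups, with 2 libraries in each.

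The UB organoids were grown from ureteric buds (UBs), the epithelial outgrowths that give rise to the collecting duct system of the kidney. The buds came from embryos of a C57BL/6 x Swiss Webster background that carried the *Wnt11*-RFP reporter (Wnt11-RFP +/- in the labels, with an age of embryonic day 11). The organoids were kept in UB culture medium for 5, 10 or 20 days. Under this protocol the organoids are broken up and replated every 5 days, so that libraries of different days also differ in the number of passages. Collecting duct (CD) organoids are made in the protocol by moving UB organoids of day 10 to a differentiation medium for a week. Their total time in culture thus lies between those of the day 10 and day 20 UB organoids. By the study's recipe the differentiation medium holds, among others, inhibitors of the kinase MEK and of Notch signalling and the hormones aldosterone and vasopressin. The UB culture medium holds, among others, GDNF, R-spondin and a JAK inhibitor, which the study does not list for the differentiation medium. What the components added or withdrawn contribute to the levels in CD organoids was not tested. The fifth group, adult mCD, holds CD cells sorted by FACS for the Venus reporter, which the *Hoxb7* promoter drives in the UB lineage, from kidneys of mice 2 months of age. The sample labels of these libraries instead repeat the embryonic age, the *Wnt11*-RFP genotype and the word organoid. The labels call the 2 libraries of a group replicates without saying whether they came from separate cultures or mice. The p-values therefore measure the spread between these libraries, which may be technical. The fit estimates this spread over all groups together, although it was unequal. Between replicates, the chi-square per degree of freedom, which also grows with depth, was 25.4 at day 10 and 10.7 at day 5. It was 2.88 at day 20, 2.72 in CD organoids and 4.97 in adult mCD.

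Cyclin-dependent kinases (CDKs) drive cells through the cell cycle, and 2 families of small proteins hold them back. Members of the CIP/KIP family, such as p21 (*Cdkn1a*) and p27 (*Cdkn1b*), bind cyclin-CDK complexes at several stages of the cycle. Members of the INK4 family (*Cdkn2a*, *Cdkn2b* and *Cdkn2c*) bind CDK4 and CDK6 and keep the retinoblastoma protein active. *Cdkn2a* is known to come on as mouse cells are kept in culture, and its locus also encodes p19Arf, which protects p53 by holding back MDM2. The p53 protein is controlled largely after translation, so that the abundance of its target transcripts is commonly used as a readout of its activity. Among these targets, *Cdkn1a* stops the cycle, *Mdm2* encodes the ubiquitin ligase that degrades p53, *Ccng1* encodes cyclin G1, which acts in feedback on p53, and *Bbc3* encodes PUMA, a BH3-only protein that triggers apoptosis.

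Total counts lay between 22858971 and 24536676 in the 4 libraries of days 5 and 10 and between 11913613 and 16759872 in the other 6. Transcripts of 4 Y-linked genes summed to at most 0.875 CPM (the count of a gene scaled to the size of its library) in the 4 libraries of days 5 and 10 and to at least 229.8 CPM in each of the other 6, which include the CD organoids. Every comparison of these 6 with days 5 and 10 is also one between libraries with and without Y-linked transcripts, and the CD organoids sequenced did not come from the day 10 cultures sequenced. Mitochondrial genes took 0.969% to 1.58% of the counts at days 5 and 10, 3.10% to 3.39% at day 20 and in CD organoids, and 9.64% to 9.86% in adult mCD. Of the UB markers, the tip gene *Ret* had means of 656, 1483 and 2088 CPM on days 5, 10 and 20, 16.6 CPM in CD organoids and 5.48 CPM in adult mCD. The tip gene *Wnt11* stood at 436, 151, 20.96, 0.405 and 2.14 CPM in the same order. *Cdh1* (742 CPM at day 10 and 2039 CPM in CD organoids) and *Krt8* (337 and 622 CPM), epithelial genes of the same 8-gene list, were higher in CD organoids, and the list summed to 3831 and 4279 CPM at day 10 and 3401 and 3501 CPM in CD organoids. The 8 markers of principal cells (PC) summed to 1334 and 1497 CPM and the 8 of intercalated cells (IC) to 1983 and 2076 CPM in CD organoids, where the PC gene *Avpr2* was at 0. In adult mCD the PC list summed to 11519 and 11986 CPM and the IC list to 2896 and 3000 CPM. Adult mCD also held the 8 proximal tubule markers at 8282 and 10363 CPM (at most 37.6 CPM in any organoid library). It held the 4 markers of the loop of Henle and distal tubule at 3718 and 3959 CPM and the 4 endothelial markers at 499 and 506 CPM as well, against at most 6.58 and 2.45 CPM in any organoid library. The 6 stroma markers summed to 127 and 257 CPM in CD organoids and 137 and 150.3 CPM in adult mCD, against 9.12 to 39.7 CPM in UB organoids, and 4 of the 6 were higher in CD organoids than at day 10 by edgeR's test. The 6 leukocyte markers summed to 46.1 and 52.0 CPM in CD organoids, with *C1qa* and *C1qb* at 0, to 27.2 and 30.7 CPM in adult mCD and to at most 13.8 CPM in UB organoids. What these differences between libraries contribute to the results on CD organoids, adult mCD and day 20 was not tested.

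The p53 protein binds DNA as a tetramer at pairs of a short half-site, and the stretches upstream of 4 of the genes are shown because they hold a match to that half-site. RefSeq promoter windows on GRCm38.p6, from 250 bases before to 50 after each annotated start, were at hand for all 9 genes, 14 windows in all. The p53 half-site, which reads alike on both strands, was found in 4 of these windows, those of *Cdkn1a*, *Mdm2*, *Ccng1* and *Trp53*, and in 8.36% of all 32851 windows. A pair of half-sites at most 13 bases apart was found in the first *Cdkn1a* window and in 24 of all windows, 0.0731%. None of the 3 *Bbc3* windows holds one. Capitals mark the half-sites, and the stretches end before the first annotated exon:
*Cdkn1a*, chr17:29090866-29090975, plus strand: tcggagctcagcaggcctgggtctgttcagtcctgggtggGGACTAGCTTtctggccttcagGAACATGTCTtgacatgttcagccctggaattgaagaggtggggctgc
*Mdm2*, chr10:117710895-117710984, minus strand: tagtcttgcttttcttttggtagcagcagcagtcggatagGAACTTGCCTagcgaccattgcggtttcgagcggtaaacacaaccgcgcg
*Ccng1*, chr11:40755422-40755511, minus strand: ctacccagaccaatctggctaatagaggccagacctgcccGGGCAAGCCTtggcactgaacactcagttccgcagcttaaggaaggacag
*Trp53*, chr11:69580244-69580333, plus strand: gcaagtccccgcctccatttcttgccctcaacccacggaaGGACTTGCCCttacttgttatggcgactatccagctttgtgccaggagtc
In *Cdkn1a* the half-sites begin 73 and 51 bases before the upstream RefSeq start, 12 bases apart. The window of its other start, at chr17:29093769, holds 0 half-sites. In *Mdm2* the half-site begins 186, in *Ccng1* 185 and in *Trp53* 75 bases before the RefSeq start. A match describes the letters of the window only.

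*Trp53* (chr11:69580359-69591873, plus strand, GENCODE M21 on GRCm38) showed no change that passed the test through UB culture and was lower in both CD groups. Its transcript stood at 124 and 135 CPM at day 5, 131 and 134 CPM at day 10 and 136 and 137 CPM at day 20 in replicates 1 and 2 (given in this order throughout). It was 89.5 and 80.6 CPM in CD organoids and 46.9 and 42.0 CPM in adult mCD. Every CD organoid library lay below every UB organoid library and both adult libraries lay below those. No difference between the 3 days passed the test (log2 fold changes between 0.03 and 0.08, edgeR adjusted p between 0.422 and 0.793). *Trp53* was 1.61-fold lower in CD organoids than at day 20 (log2 fold change -0.69 ± 0.08 (SE), edgeR adjusted p = 8.40e-06), 1.55-fold lower than at day 10 (log2 fold change -0.64 ± 0.08 (SE), edgeR adjusted p = 1.40e-05). Adult mCD held 3.08-fold less than day 20 (log2 fold change -1.62 ± 0.08 (SE), edgeR adjusted p = 1.13e-09). Since these are bulk samples, fewer cells with a transcript and less of it per cell cannot be told apart.

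**Figure D1:**
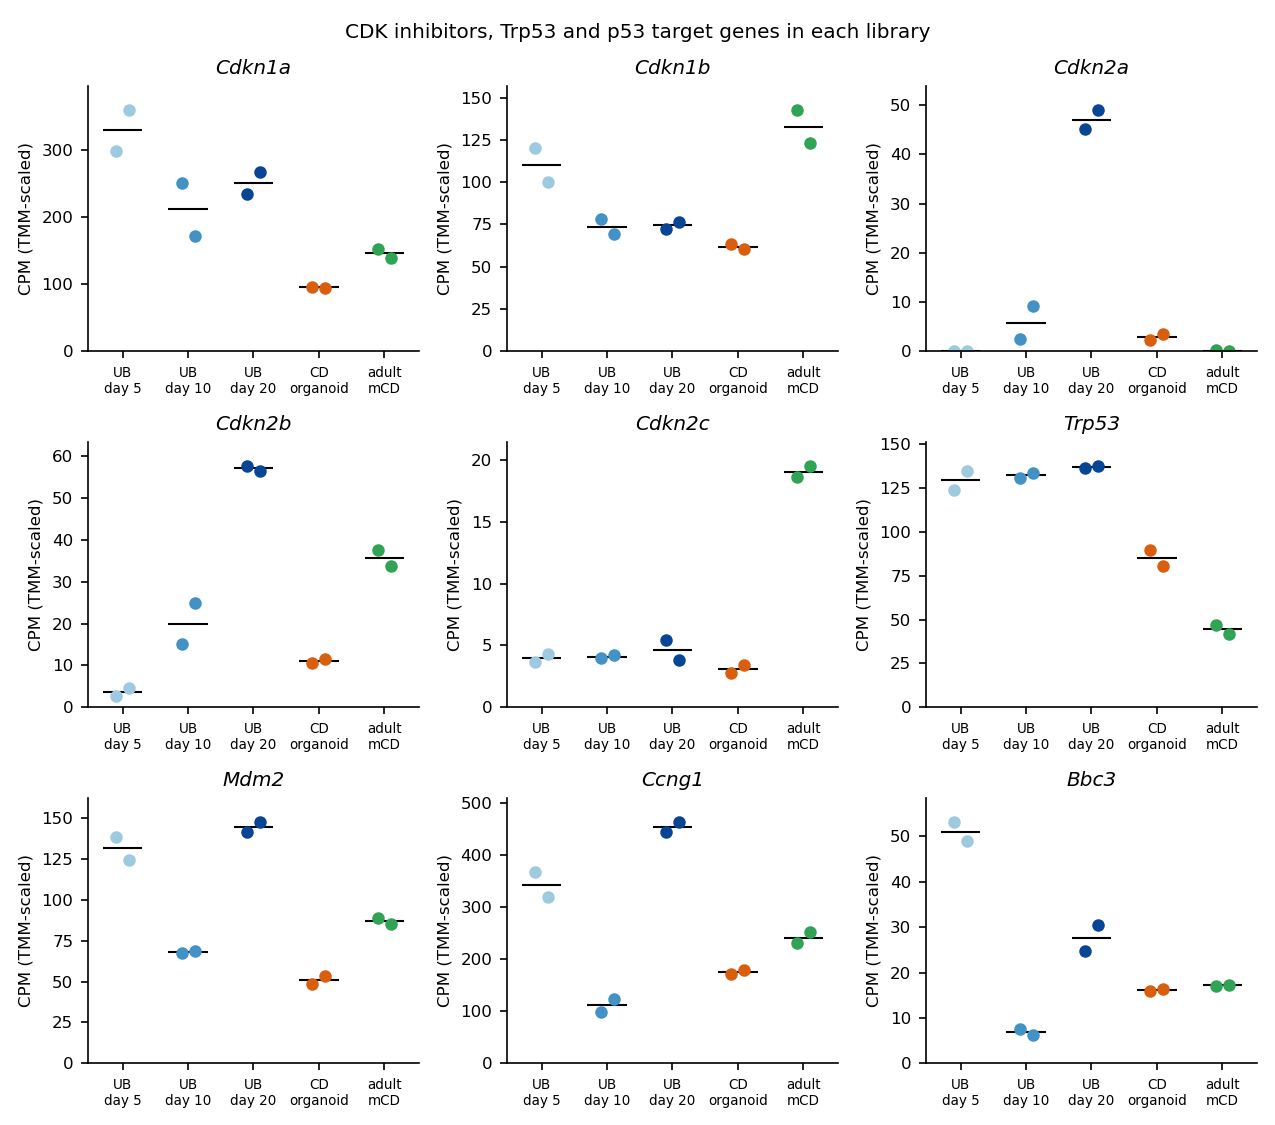
Level of each of the 9 genes in each library, in CPM scaled with TMM factors (vertical axis, from 0), by group (horizontal axis). Points are the 2 libraries of a group and lines their mean. *Cdkn2a* and *Cdkn2b* peak at day 20, *Mdm2*, *Ccng1* and *Bbc3* dip at day 10, and *Cdkn2c* is highest in adult mCD at 18.6 and 19.5 CPM.

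The target genes *Mdm2*, *Ccng1* and *Bbc3* had their lowest level of UB culture at day 10, where *Trp53* showed no such dip. *Mdm2* (chr10:117688875-117710758, minus strand) went from 139 and 124 CPM at day 5 to 67.4 and 68.9 CPM at day 10 and 141 and 147 CPM at day 20, with no overlap between the days. The level fell 1.93-fold to day 10 (log2 fold change -0.95 ± 0.08 (SE), edgeR adjusted p = 1.15e-06) and rose 2.12-fold to day 20 (log2 fold change 1.08 ± 0.08 (SE), edgeR adjusted p = 4.25e-07). Day 20 was thus close to day 5 (log2 fold change 0.13 ± 0.07 (SE), edgeR adjusted p = 0.167). CD organoids held 48.8 and 53.3 CPM, the lowest of the 5 groups, and adult mCD 89.1 and 85.4 CPM. *Mdm2* was 2.83-fold lower in CD organoids than at day 20 (edgeR adjusted p = 3.85e-09) and 1.34-fold lower than at day 10 (edgeR adjusted p = 5.62e-04, or 0.0160 without replicate 1 of the CD organoids). It was also 1.71-fold lower than in adult mCD (edgeR adjusted p = 2.18e-06).

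*Ccng1* (chr11:40748552-40755311, minus strand) had the highest level per length of the 9 genes at day 20, 129 ± 3.73 CPM per kilobase of exon (SD, n = 2), and moved in the same direction as *Mdm2* over the days of UB culture. It stood at 367 and 319.6 CPM at day 5, 98.1 and 124 CPM at day 10 and 445 and 463 CPM at day 20, and the 3 days were well apart. The fall to day 10 was 3.08-fold (log2 fold change -1.62 ± 0.11 (SE), edgeR adjusted p = 2.42e-07) and the rise to day 20 4.08-fold (log2 fold change 2.03 ± 0.11 (SE), edgeR adjusted p = 3.13e-08). Day 20 was above day 5 by 1.32-fold (edgeR adjusted p = 0.00581). That last call did not hold without replicate 2 of day 5 (edgeR adjusted p = 0.0633), replicate 1 of day 20 (edgeR adjusted p = 0.0249) or replicate 2 of day 20 (edgeR adjusted p = 0.0453). In CD organoids *Ccng1* was at 171 and 180.2 CPM, 2.59-fold below day 20 (edgeR adjusted p = 1.51e-07) and 1.58-fold above day 10 (edgeR adjusted p = 1.49e-04). Both adult mCD libraries, at 231 and 252 CPM, lay between the CD organoids and day 5. The difference between CD organoids and adult mCD passed (log2 fold change -0.46 ± 0.11 (SE), edgeR adjusted p = 0.00237), but not without any 1 of the 4 libraries (edgeR adjusted p = 0.0332 and 0.0137 without CD organoid replicates 1 and 2, 0.0120 and 0.0295 without adult replicates 1 and 2).

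*Bbc3* (chr7:16308393-16318205, plus strand) showed the widest swing of the 3 target genes. Its 53.1 and 48.9 CPM at day 5 gave way to 7.45 and 6.31 CPM at day 10, and 24.7 and 30.4 CPM were measured at day 20. The fall to day 10 was 7.41-fold (log2 fold change -2.88 ± 0.13 (SE), edgeR adjusted p = 1.31e-08), and the rise to day 20 4.004-fold (log2 fold change 1.99 ± 0.13 (SE), edgeR adjusted p = 1.89e-07). The fitted rise is just under 4-fold. Unlike *Ccng1*, *Bbc3* did not regain its level of day 5 (log2 fold change -0.89 ± 0.12 (SE), edgeR adjusted p = 2.78e-05). CD organoids held 15.9 and 16.4 CPM and adult mCD 17.0 and 17.3 CPM. The CD organoids were thus above day 10 by 2.34-fold (edgeR adjusted p = 3.96e-06) and below day 20 by 1.71-fold (edgeR adjusted p = 1.88e-04). Between CD organoids and adult mCD no difference passed the test (log2 fold change -0.09 ± 0.13 (SE), edgeR adjusted p = 0.609). With library totals in place of TMM factors the log2 fold change turned to 0.30.

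*Cdkn1a* (chr17:29090976-29100727, plus strand), the target with the pair of half-sites, moved less than the other targets between day 5 and day 10 and spread more between the replicates of day 10. It was at 299 and 359.7 CPM at day 5, 251 and 173 CPM at day 10 and 234 and 267 CPM at day 20, where the ranges of days 10 and 20 overlap. The fall from day 5 to day 10 was 1.56-fold (log2 fold change -0.64 ± 0.14 (SE), edgeR adjusted p = 0.00324), a call lost without replicate 2 of day 5 (edgeR adjusted p = 0.0417). The difference of day 20 from day 10 did not pass the test (log2 fold change 0.24 ± 0.14 (SE), edgeR adjusted p = 0.223). Without replicate 1 of day 10 it did (log2 fold change 0.56, edgeR adjusted p = 3.57e-04). CD organoids held 95.7 and 94.9 CPM, the lowest level of *Cdkn1a*. This was 2.63-fold below day 20 (log2 fold change -1.39 ± 0.15 (SE), edgeR adjusted p = 3.02e-06) and 2.22-fold below day 10 (edgeR adjusted p = 1.58e-05). Adult mCD stood at 153 and 139.9 CPM, 1.54-fold above CD organoids (edgeR adjusted p = 0.00291). That call was lost (edgeR adjusted p = 0.0250, 0.0224 and 0.0434) without CD organoid replicate 1, CD organoid replicate 2 or adult replicate 1. In the annotation a gene of unknown type, AC167363.2, lies on the opposite strand within *Cdkn1a*, and its reads were not listed apart.

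The INK4 genes *Cdkn2a* and *Cdkn2b* rose step by step during UB culture, and no other member did. They are neighbours on chromosome 4 (chr4:89274471-89294653 and chr4:89306299-89311039, both on the minus strand), 11645 bases apart. *Cdkn2c* lies elsewhere on the same chromosome (chr4:109660876-109667189, minus strand). *Cdkn2a* had 0 and 2 counts in the libraries of day 5, which is 0 and 0.0816 CPM. It reached 2.42 and 9.19 CPM at day 10 and 45.2 and 49.0 CPM at day 20. The 2 libraries of day 10 differed 3.80-fold, the largest gap between replicates of any member above 3 counts, yet all 6 libraries fell into the order of their days without overlap. Set against the 3 counts taken as the limit of detection, *Cdkn2a* was at least 45.3-fold higher at day 10 (edgeR adjusted p = 5.69e-05) and at least 367-fold higher at day 20 (edgeR adjusted p = 1.89e-07) than at day 5. The first bound was 71.7-fold without replicate 1 of day 10 and 18.9-fold without replicate 2. From day 10 to day 20 *Cdkn2a* rose 8.11-fold (log2 fold change 2.997 ± 0.39 (SE), edgeR adjusted p = 8.51e-05), and 5.12-fold and 19.5-fold without replicates 1 and 2 of day 10.

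In CD organoids *Cdkn2a* was at 2.21 and 3.45 CPM, overlapping day 10, with replicate 1 below both libraries of day 10, and in adult mCD at 3 and 1 counts, which is 0.226 and 0.0786 CPM. It was 16.6-fold lower in CD organoids than at day 20 (log2 fold change -4.04 ± 0.45 (SE), edgeR adjusted p = 5.66e-06) and at least 199.6-fold lower in adult mCD than at day 20 (edgeR adjusted p = 2.08e-07). Against day 10, the stage at which differentiation begins in the protocol, the difference turned on a single library (log2 fold change -1.05 ± 0.48 (SE), edgeR adjusted p = 0.0901). It passed without replicate 1 of day 10 (log2 fold change -1.68, edgeR adjusted p = 6.00e-06) and turned to 0.22 without replicate 2 (edgeR adjusted p = 0.556), and it also passed without the minimum of 10 counts (edgeR adjusted p = 3.62e-06). CD organoids, with 31 and 43 counts, held at least 11.99-fold more than adult mCD (edgeR adjusted p = 0.00369). This call was lost without CD organoid replicate 2 (edgeR adjusted p = 0.0282), adult replicate 1 (edgeR adjusted p = 0.0265) or adult replicate 2 (edgeR adjusted p = 0.0468). The annotation gives the gene 2 transcripts with separate first exons and a shared second exon, which encode p19Arf and p16INK4a. The counts are per gene, so that the 2 products cannot be told apart.

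*Cdkn2b*, which encodes p15INK4b, followed *Cdkn2a* in the organoids but not in the adult cells. Its level was 2.73 and 4.57 CPM at day 5, 15.1 and 24.9 CPM at day 10 and 57.7 and 56.6 CPM at day 20, again in order without overlap. It rose 5.47-fold to day 10 (log2 fold change 2.43 ± 0.23 (SE), edgeR adjusted p = 5.36e-06). A further rise of 2.86-fold followed to day 20 (log2 fold change 1.51 ± 0.20 (SE), edgeR adjusted p = 8.25e-05), 15.6-fold in all. CD organoids held 10.6 and 11.5 CPM, 5.17-fold less than day 20 (log2 fold change -2.37 ± 0.22 (SE), edgeR adjusted p = 8.33e-07). They held 1.81-fold less than day 10 (edgeR adjusted p = 0.00533, but 0.0405, 0.0566 and 0.0320 without day 10 replicate 2, CD organoid replicate 1 and CD organoid replicate 2). Adult mCD, at 37.5 and 33.8 CPM, had 3.23-fold more *Cdkn2b* than CD organoids (CD organoids against adult mCD, log2 fold change -1.69 ± 0.22 (SE), edgeR adjusted p = 2.15e-05), whereas *Cdkn2a* differed in the other direction. Per kilobase of exon, *Cdkn2b* exceeded *Cdkn2a* 5.27-fold and 2.28-fold in the libraries of day 10 and 4.05-fold and 2.80-fold in CD organoids. The ratio was 1.08 and 0.974 at day 20. The difference of adult mCD from day 20 was small (log2 fold change -0.68 ± 0.20 (SE), edgeR adjusted p = 0.00914). It lost the call without any 1 of the 4 libraries (edgeR adjusted p = 0.0502 and 0.0414 without day 20 replicates 1 and 2, 0.0234 and 0.0740 without adult replicates 1 and 2).

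*Cdkn2c* (p18INK4c), the third INK4 gene, was low in every organoid. It stood at 3.67 and 4.33 CPM at day 5, 3.97 and 4.19 CPM at day 10, 5.46 and 3.83 CPM at day 20 and 2.78 and 3.45 CPM in CD organoids, where the days of UB culture overlap. Adult mCD held 18.6 and 19.5 CPM, 6.12-fold more than CD organoids (CD organoids against adult mCD, log2 fold change -2.60 ± 0.21 (SE), edgeR adjusted p = 1.95e-07) and 4.10-fold more than day 20 (log2 fold change 2.02 ± 0.20 (SE), edgeR adjusted p = 7.87e-07). No comparison among the organoids passed the test (edgeR adjusted p between 0.0558 and 0.950). *Cdkn1b* (chr6:134920401-134925513, plus strand) varied least of the 9 genes, 2.15-fold between its highest and lowest group mean.

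*Cdkn1b* was at 120.0 and 100.1 CPM at day 5, 78.0 and 69.1 CPM at day 10 and 72.1 and 76.7 CPM at day 20. It fell 1.496-fold from day 5 to day 10 (log2 fold change -0.58 ± 0.10 (SE), edgeR adjusted p = 5.27e-04), and days 10 and 20 overlapped (log2 fold change 0.02 ± 0.10 (SE), edgeR adjusted p = 0.935). The call for day 20 against day 5 (edgeR adjusted p = 3.98e-04) was lost without replicate 1 of day 20 (edgeR adjusted p = 0.0114). CD organoids, at 63.3 and 60.6 CPM, did not pass against day 10 (log2 fold change -0.25 ± 0.10 (SE), edgeR adjusted p = 0.0649) or day 20 (log2 fold change -0.26 ± 0.10 (SE), edgeR adjusted p = 0.0589). Adult mCD had the highest level, 143 and 123 CPM, 2.15-fold above CD organoids (CD organoids against adult mCD, log2 fold change -1.10 ± 0.10 (SE), edgeR adjusted p = 8.49e-07).

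The order of the 5 groups differed from gene to gene. CD organoids had the lowest mean of *Cdkn1a*, *Cdkn1b*, *Cdkn2c* and *Mdm2*, day 10 that of *Ccng1* and *Bbc3*, adult mCD that of *Trp53*, and day 5 that of *Cdkn2a* and *Cdkn2b*. Day 20 had the highest mean of *Cdkn2a*, *Cdkn2b*, *Mdm2*, *Ccng1* and *Trp53*, day 5 that of *Cdkn1a* and *Bbc3*, and adult mCD that of *Cdkn1b* and *Cdkn2c*. In the order of the means, the libraries of neighbouring groups overlapped between days 10 and 20 for *Cdkn1a*, *Cdkn1b* and *Cdkn2c*, between days 5 and 10 for *Cdkn2c* and *Trp53*, and between day 5 and adult mCD and between CD organoids and day 10 for *Cdkn2a*. For *Mdm2*, *Ccng1*, *Bbc3* and *Cdkn2b* no neighbouring groups overlapped, although 2 libraries a group leave the ranges short. The share of all genes without such overlap was not counted.

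Levels of different genes were compared as CPM per kilobase of exon. On this scale the sum of the 5 inhibitors went from 114 and 128 (day 5) through 102 and 91.0 (day 10) to 164 and 176 (day 20). It was 51.4 and 52.5 in CD organoids and 109 and 98.1 in adult mCD. The largest share belonged to *Cdkn1a* at day 5, with 73.9% and 79.0%, and the 3 INK4 genes held 2.93% and 3.88%. By day 20 the INK4 share had reached 50.1% and 47.7%, divided about evenly between *Cdkn2a* (23.5% and 23.8%) and *Cdkn2b* (25.3% and 23.1%). The *Cdkn2a* part cannot be divided into p16INK4a and p19Arf, which acts on MDM2 and not as an INK4 protein. The INK4 gene *Cdkn2d* is not among the 5. The INK4 share was 14.1% and 30.0% at day 10 and 20.5% and 23.8% in CD organoids, where *Cdkn1a* and *Cdkn1b* together held the rest. Adult mCD had an INK4 share of 31.4% and 32.3% that rested on *Cdkn2b* and *Cdkn2c*. CD organoids thus had the lowest summed level of the 5 groups, in both libraries.

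**Figure D2:**
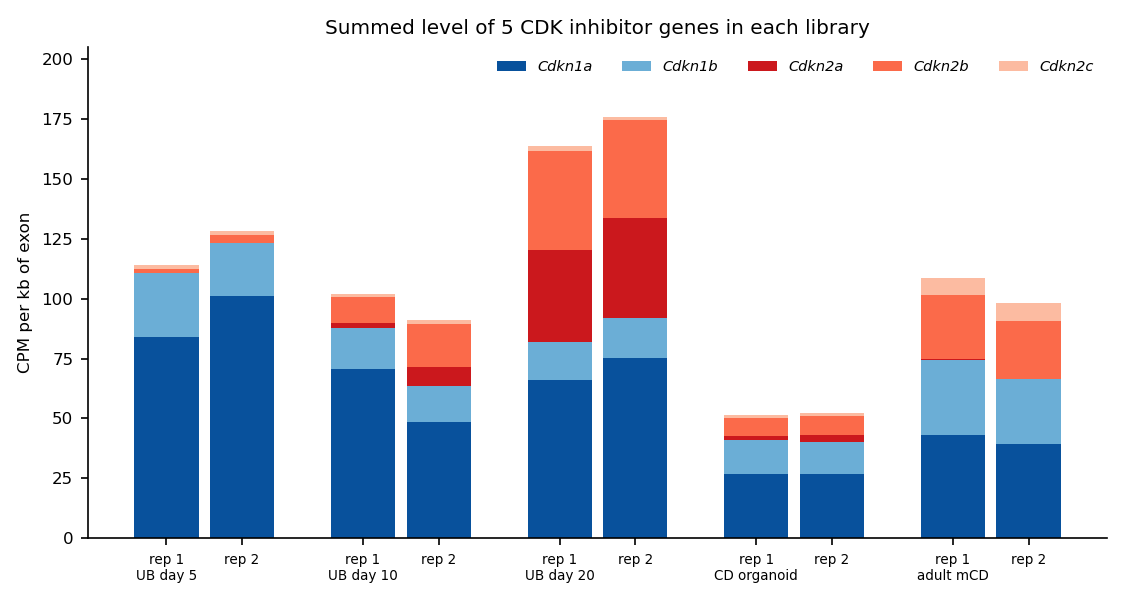
Summed level of the 5 CDK inhibitor genes in each library (bars, in CPM per kilobase of exon, from 0), divided by gene. Blue parts are the CIP/KIP genes and red parts the INK4 genes, which grow from 2.93% and 3.88% of the sum at day 5 to 50.1% and 47.7% at day 20. The *Cdkn2a* part cannot be divided into p16INK4a and p19Arf.

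In each comparison the members called were counted, with genes called where the adjusted p in edgeR did not exceed 0.01. 2 of the 9 members rose from day 5 to day 10 (*Cdkn2a* and *Cdkn2b*) and 5 fell, against 10.5% and 11.8% of all genes tested. 3 of them, *Cdkn2a*, *Cdkn2b* and *Bbc3*, changed more than 4-fold, against 3.41% of all genes. From day 10 to day 20, 5 members rose and 0 fell (all genes: 8.76% and 9.94%), and 2, *Cdkn2a* and *Ccng1*, did so by more than 4-fold (3.39% of all genes). Over the whole span from day 5 to day 20, 3 rose and 2 fell (all genes: 16.1% and 19.2%), with 2 past 4-fold (8.61%). Without replicate 1 of day 20 these were 2 and 1. The median log2 fold change of the 9 genes was -0.58, 1.08 and 0.13 in these comparisons, where that of all genes was 0.02, -0.10 and -0.05. The 3 comparisons share libraries, so their values are not independent.

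In CD organoids against day 10, 2 members were higher (*Ccng1* and *Bbc3*) and 4 lower (all genes: 18.1% and 19.8%), and 0 passed 4-fold (10.7%). Against day 20, 0 were higher and 7 lower, all but *Cdkn1b* and *Cdkn2c* (all genes: 16.8% and 17.1%), and 2, *Cdkn2a* and *Cdkn2b*, were over 4-fold lower (9.46%). The median log2 fold change was -0.42 against day 10 and -1.37 against day 20, where all genes had -0.15 and 0.00. Compared with adult mCD, CD organoids had 2 members higher (*Cdkn2a* and *Trp53*) and 6 lower (all genes: 18.6% and 21.6%), 2 of them over 4-fold (14.3%). Without CD organoid replicate 2, or without adult replicate 1, 1 was higher and 4 were lower. Adult mCD had 2 higher (*Cdkn1b* and *Cdkn2c*) and 7 lower than day 20 (all genes: 25.4% and 22.7%), 2 over 4-fold (19.2%). With library totals in place of TMM factors, the median of all genes moved by 0.34 on the log2 scale and the share of calls that were higher in CD organoids than in adult mCD went from 46.2% to 66.2%. The calls for *Cdkn1a* and *Ccng1* were lost (edgeR adjusted p = 0.191 and 0.633). The share of higher calls went from 52.8% to 36.4% for adult mCD against day 20 (median of all genes moved by -0.41) and from 47.0% to 65.6% for day 10 against day 5 (moved by 0.14).

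**Figure D3:**
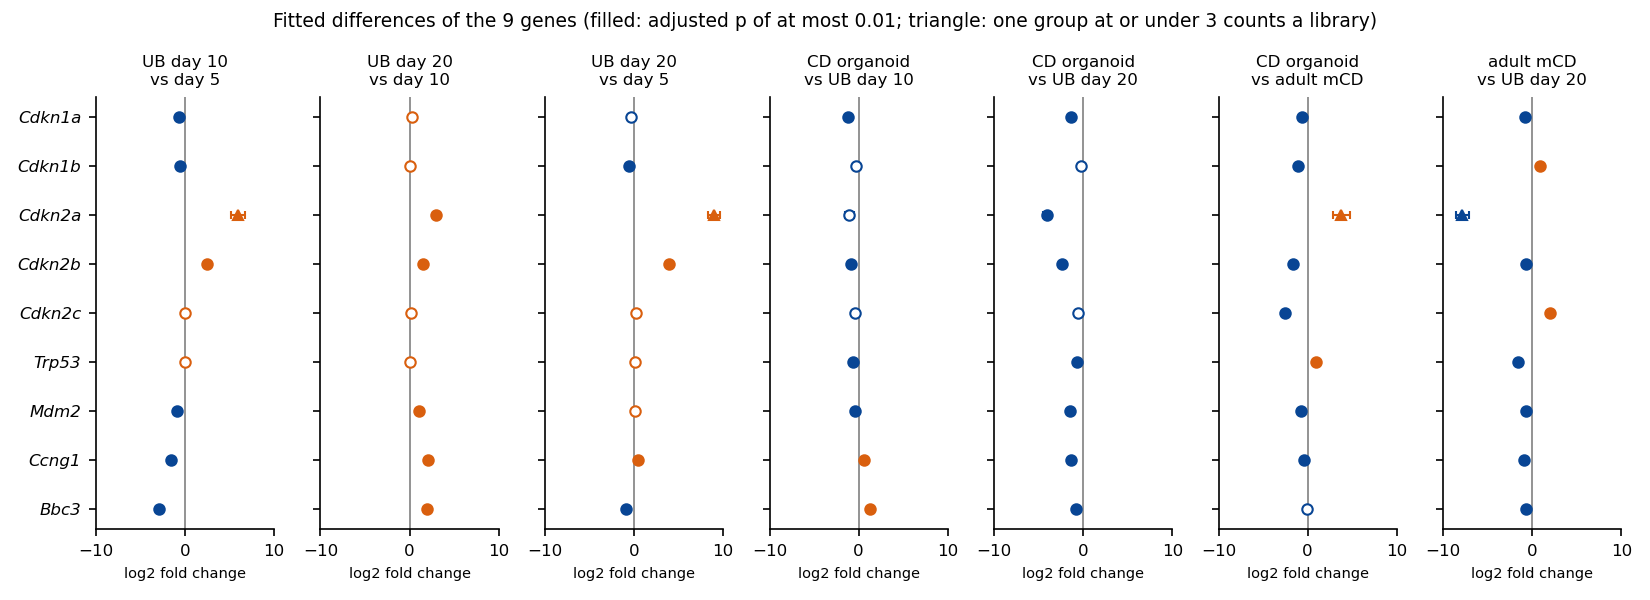
Fitted log2 fold changes of the 9 genes (horizontal axis) in the 7 comparisons, with bars of 1 standard error where these are wider than the symbol. Filled symbols passed an adjusted p of at most 0.01 in edgeR, and triangles mark *Cdkn2a* where a group was at or under 3 counts in each library and the fitted value depends on the prior count. In CD organoids against day 20, none of the 9 symbols lies above 0.

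A wider set of 24 other p53 target genes changed mostly in the same direction as *Mdm2*, *Ccng1* and *Bbc3* over the days of UB culture. This set was drawn from general knowledge with earlier results of these data known, so it is not independent support. In this and the lists that follow, genes are named and ranked among those that passed with a mean of at least 5 CPM over the 4 libraries compared, and genes below that level may have changed more. From day 5 to day 10, 0 of them rose and 14 fell, against 10.5% and 11.8% of all genes. The median log2 fold change was -0.69 (all genes 0.02). Among those that fell most were *Eda2r* (7.67 against 36.9 CPM, log2 fold change -2.25 ± 0.27), a TNF receptor family member, and *Zmat3* (68.8 against 287 CPM, log2 fold change -2.06 ± 0.08), an RNA-binding protein. *Phlda3* (21.7 against 69.0 CPM, log2 fold change -1.66 ± 0.12), an inhibitor of AKT, fell as well. From day 10 to day 20, 20 rose and 0 fell, against 8.76% and 9.94% of all genes (median 1.01, all genes -0.10). The largest rises above 5 CPM were those of *Btg2* (713 against 23.99 CPM, log2 fold change 4.89 ± 0.16), an antiproliferative gene that is also an immediate early gene, and *Gdf15* (39.3 against 3.18 CPM, log2 fold change 3.60 ± 0.18), a secreted stress cytokine. *Eda2r* (70.3 against 7.67 CPM, log2 fold change 3.18 ± 0.27) and *Trp53inp1* (214 against 41.8 CPM, log2 fold change 2.35 ± 0.18) rose as well. With each library of the 2 groups left out in turn, between 12 and 15 of the 24 fell to day 10, and between 16 and 23 rose to day 20. Without replicate 1 of day 10, 2 also rose to day 10. At day 20 against day 5, 10 were higher and 4 lower (all genes: 16.1% and 19.2%).

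The same 24 genes were mixed in CD organoids against day 10. Of them, 11 were higher and 7 lower (median 0.20), against 18.1% and 19.8% of all genes. *Pmaip1* (212 against 6.27 CPM, log2 fold change 5.08 ± 0.30), which encodes the BH3-only protein NOXA, and *Btg2* (209.9 against 23.99 CPM, log2 fold change 3.13 ± 0.15) rose. *Gtse1* (4.41 against 37.1 CPM, log2 fold change -3.06 ± 0.16), a gene of the G2 phase, and *Plk2* (22.5 against 125 CPM, log2 fold change -2.47 ± 0.14) fell. Against day 20, 3 were higher and 16 lower (median -0.97), where 16.8% and 17.1% of all genes were. Among the lower were *Eda2r* (1.09 against 70.3 CPM, log2 fold change -5.94 ± 0.38), *Plk2* (22.5 against 324 CPM, log2 fold change -3.84 ± 0.14) and *Phlda3* (5.56 against 79.0 CPM, log2 fold change -3.82 ± 0.15). Adult mCD and CD organoids split evenly, 7 higher and 7 lower in CD organoids (all genes: 18.6% and 21.6%). With library totals, 15 were higher and 5 lower. In CD organoids against adult mCD, *Gdf15* (7.49 against 694 CPM, log2 fold change -6.54 ± 0.18) and *Btg2* (209.9 against 1707 CPM, log2 fold change -3.02 ± 0.14) were lower.

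**Figure D4:**
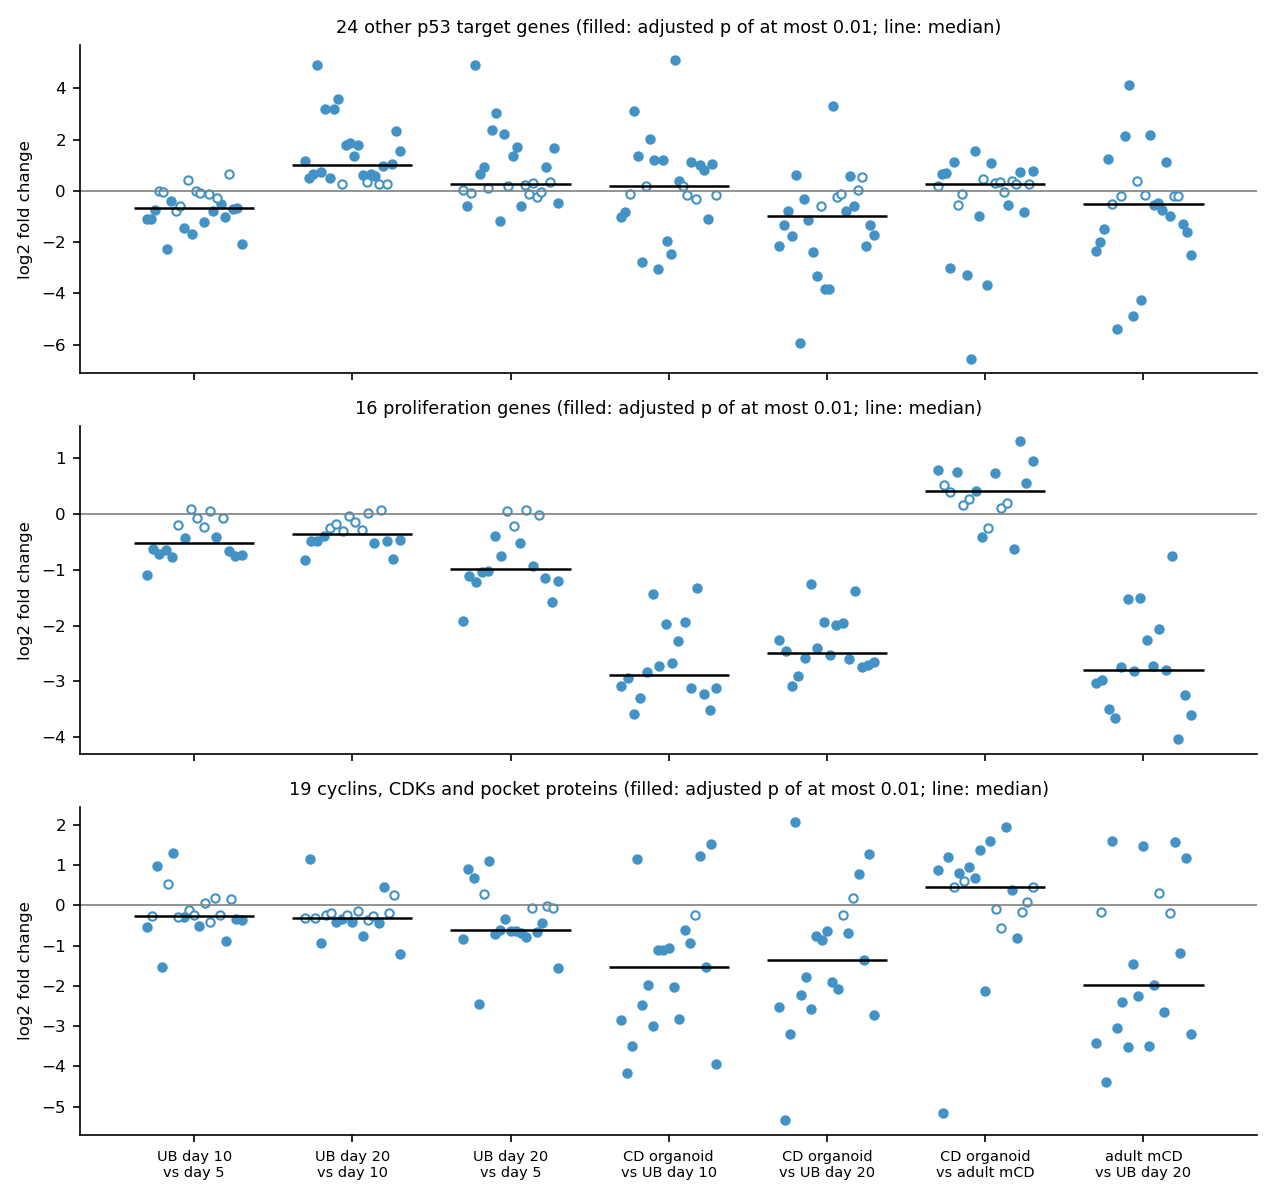
Fitted log2 fold changes (vertical axis) of the 24 other p53 target genes, 16 proliferation genes and 19 cyclins, CDKs and pocket proteins in each of the 7 comparisons, with genes in alphabetical order within a column. Filled points passed an adjusted p of at most 0.01 in edgeR and lines are medians. The p53 target genes lie mostly below 0 from day 5 to day 10 (median -0.69) and mostly above 0 from day 10 to day 20 (median 1.01).

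Of 11 regulators and relatives of p53, 0 changed from day 5 to day 10 by edgeR's test (all genes: 10.5% higher and 11.8% lower). From day 10 to day 20, 2 rose (all genes: 8.76%). These were *Trp63* (37.8 against 3.22 CPM, log2 fold change 3.52 ± 0.18), which encodes the relative p63, and *Mdm4* (263 against 199 CPM, log2 fold change 0.40 ± 0.07), which encodes a partner of MDM2 that restrains p53. The checkpoint kinase genes *Chek1* (6.82 against 30.3 CPM, log2 fold change -2.15 ± 0.14) and *Chek2* (8.70 against 19.3 CPM, log2 fold change -1.15 ± 0.15) were lower in CD organoids than at day 20. Among the 15 genes of the BCL2 family, to which *Bbc3* belongs, 14 were tested. Of these, 7 were higher and 6 lower in CD organoids than at day 20 (all genes: 16.8% and 17.1%). *Bmf* (134 against 2.47 CPM, log2 fold change 5.74 ± 0.12) and *Bik* (25.9 against 1.73 CPM, log2 fold change 3.86 ± 0.26), both BH3-only genes like *Bbc3*, were higher. From day 10 to day 20, where *Bbc3* rose, *Bmf* (2.47 against 62.0 CPM, log2 fold change -4.62 ± 0.12) fell.

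*Cdkn1c* (p57) and *Cdkn2d* (p19INK4d), the CDK inhibitors outside the 9, went the other way from *Cdkn2a* and *Cdkn2b*. *Cdkn1c* fell from 74.9 CPM at day 5 to 26.1 CPM at day 10 and 4.44 CPM at day 20 (group means, log2 fold change -4.07 ± 0.18 over the whole span), and *Cdkn2d* fell by 1.51 ± 0.15 on the log2 scale. Both changes passed in each step. In CD organoids *Cdkn1c* (22.8 against 4.44 CPM, log2 fold change 2.36 ± 0.19) was higher than at day 20.

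Of 12 genes known to act on the *Cdkn2a* locus or to lie beside it, 4 rose and 6 fell between day 5 and day 20. Over all genes, 16.1% rose and 19.2% fell. *Hmga2* (49.96 against 349 CPM, log2 fold change -2.80 ± 0.13), a chromatin protein known to lower *Cdkn2a* in stem cells, fell. *Ets1* (5.12 against 20.97 CPM, log2 fold change -2.02 ± 0.19), an activator of p16INK4a, fell as well. *Id1* (72.9 against 14.1 CPM, log2 fold change 2.37 ± 0.15), which opposes ETS factors there, and *Cbx8* (39.1 against 12.1 CPM, log2 fold change 1.68 ± 0.13), a Polycomb protein, rose. In CD organoids against day 20, 5 were higher and 7 lower (all genes: 16.8% and 17.1%). Among the lower was *Mtap* (30.1 against 134 CPM, log2 fold change -2.15 ± 0.12), a gene of the same locus that is not a CDK inhibitor.

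Genes of proliferation fell over the same days on which *Cdkn2a* and *Cdkn2b* rose, and were lowest in CD organoids and adult mCD. The 16 proliferation genes, such as *Mki67* and *Top2a*, summed to 3595 and 4036 CPM at day 5, 2605 and 2854 CPM at day 10 and 1980.2 and 2103 CPM at day 20 (lower and higher library). They summed to 402 and 449.7 CPM in CD organoids and 384 and 389 CPM in adult mCD. From day 5 to day 20, 12 of the 16 fell and 0 rose (median -0.98), where 19.2% of all genes fell and 16.1% rose. *Aurkb* (31.5 against 119.5 CPM, log2 fold change -1.92 ± 0.09) and *Top2a* (321 against 956 CPM, log2 fold change -1.57 ± 0.09) were among those that fell. The step from day 10 to day 20 gave 8 falls, but 2 without replicate 1 or without replicate 2 of day 20 and 4 without replicate 2 of day 10. All 16 were lower in CD organoids than at day 10 (median -2.89) and than at day 20 (median -2.49), also with each library left out in turn.

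**Figure D5:**
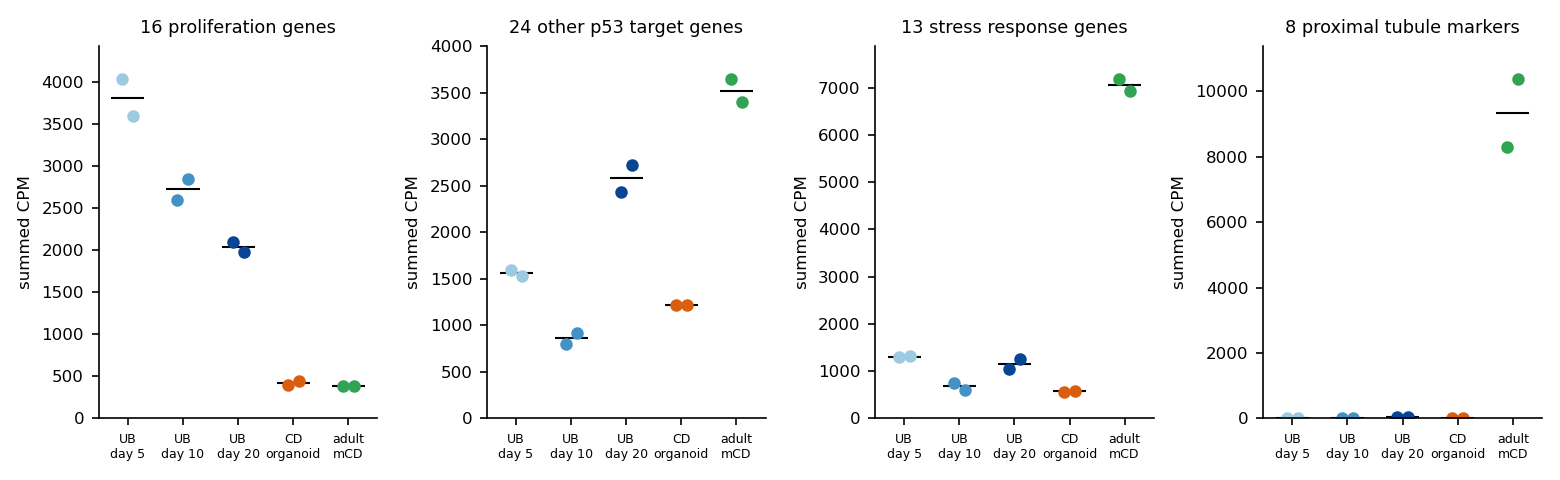
Summed CPM (vertical axes, from 0) of 16 proliferation genes, 24 other p53 target genes, 13 stress response genes and 8 proximal tubule markers in each library, by group. Points are libraries and lines group means. The proliferation sum falls from at least 3595 CPM at day 5 to at most 449.7 CPM in CD organoids, and the stress and proximal tubule sums are highest in both adult mCD libraries.

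Cyclins and CDKs, on which the inhibitors act, were mostly lower in CD organoids as well. Of 19 cyclins, CDKs, pocket proteins and their partners, 15 were lower and 3 higher in CD organoids than at day 10 (median -1.53). Over all genes, 19.8% were lower and 18.1% higher. *Ccnd1*, whose product cyclin D1 pairs with the kinases that INK4 proteins block, was at 11.0 CPM in CD organoids against 199.7 CPM at day 10, 446 CPM at day 20 and 396 CPM in adult mCD (group means). *Ccnd2* (126 against 1430.2 CPM, log2 fold change -3.50 ± 0.10) and *Skp2* (4.87 against 75.4 CPM, log2 fold change -3.93 ± 0.11), which targets p27 for degradation, were likewise lower than at day 10. During UB culture, *Ccnd1* (446 against 199.7 CPM, log2 fold change 1.16 ± 0.17) rose from day 10 to day 20, as *Cdkn2a* and *Cdkn2b* did. *Ccnd3* (31.8 against 174 CPM, log2 fold change -2.45 ± 0.22) fell from day 5 to day 20. At day 20 against day 5, 3 of the 19 were higher and 12 lower (all genes: 16.1% and 19.2%).

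The 13 stress response genes followed the p53 targets at day 10 and stood apart in adult mCD. From day 5 to day 10, 10 of the 13 fell and 0 rose (all genes: 11.8% and 10.5%). Falls were seen in *Ddit3* (13.2 against 74.2 CPM, log2 fold change -2.49 ± 0.17) and *Trib3* (6.75 against 32.3 CPM, log2 fold change -2.25 ± 0.14), both genes of the unfolded protein response. From day 10 to day 20, 8 rose and 1 fell (all genes: 8.76% and 9.94%). *Atf3* (454 against 19.8 CPM, log2 fold change 4.52 ± 0.21), an immediate early and stress gene, was among those that rose. *Ddit4* (55.4 against 336 CPM, log2 fold change -2.60 ± 0.18) was the gene that fell. Their summed level in the lower and higher library was 6920.3 and 7176 CPM in adult mCD against 559 and 579 CPM in CD organoids, and *Atf3* alone had a mean of 3002 CPM in the adult cells, which had been sorted by FACS. What the sorting contributes to the adult levels of the p53 targets was not tested.

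For each member, the genes with the most similar profile were sought among 10539 genes with a mean of at least 10 CPM, by the root mean square difference of centred log2(CPM + 1) over the 10 libraries. The gene nearest to *Bbc3* was another member, *Ccng1*, at 0.474, and the second nearest to *Ccng1* was *Mdm2*, at 0.383, after *Abcc4* at 0.344. *Cdkn2a* was most like *Dcx* (0.361) and *Pid1* (0.445), and *Cdkn2b* most like *Pcsk5* (0.202) and *Tmem37* (0.346). The closest matches of all by this measure were found for *Trp53*, in *Arid2* (0.0778) and *Zfp646* (0.0867), and for *Cdkn1b*, in *Got2* (0.0808) and *R3hdm2* (0.116). For *Mdm2* they were *Slc19a2* (0.164) and *Ube2s* (0.229), for *Cdkn1a* *Rpl23a* (0.120) and *Gm7694* (0.133) and for *Cdkn2c* *Ndufa12-ps* (0.152) and *Tob2* (0.182). The differences are on the log2 scale and describe these libraries only. They are smaller for genes that vary little. The SD of the centred values was 0.413 for *Cdkn1b* and 0.615 for *Trp53*, against 1.30 for *Cdkn2b* and 2.04 for *Cdkn2a*.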

How the data were processed

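RNA-seq libraries of the 5 groups (2 libraries each) were taken from 1 deposited table of 39273 genes. The deposited counts are whole numbers per gene. The authors describe trimming, alignment with STAR to mm10 with GENCODE M24 and assignment of reads with the Partek E/M method in Partek Flow, whereas the processing notes of the labels name FastQC 0.11.8, cutadapt 2.5, Trimmomatic 0.36, STAR and edgeR 3.28.1 on GRCm38.p6. Which of these made the deposited counts was not settled. The extraction and library kits are given differently in the labels and in the methods of the study, so whether the counting used strand was not settled. The deposited RPKM values and the deposited TMM-scaled signal, made by the authors from the counts, were not tested; the RPKM use a length summed over all transcripts of a gene, which lowers genes with many isoforms. Between genes, CPM per kilobase of the union of exons in GENCODE M21 were used instead.

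Genes whose counts summed to 10 or more across the libraries (24410) were tested with edgeR 4.0.16 (R 4.3.3): TMM factors, 1 quasi-likelihood fit of 5 group means, prior count of 1, two-sided tests and Benjamini-Hochberg adjustment over all genes tested. Genes passed at an adjusted p of at most 0.01. A fold against a group at or under 3 counts a library was given as a bound at 3 counts per library, a limit for counting error only. CPM values carry the TMM factors, and folds in words are ratios of mean CPM. Total counts of 11913613 to 24536676 limit the precision of genes with few counts, such as *Cdkn2a*.

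The 9 genes and the other gene lists were chosen with earlier results of these data known. From each other list at most 4 genes per comparison were named, those with the largest absolute log2 fold change among genes that passed with a mean of at least 5 CPM over the 4 libraries compared, and for each of the 9 the 2 genes with the nearest profile. *Avpr2*, *Ret*, *Wnt11*, *Cdh1*, *Krt8* and the example genes of the marker and proliferation lists stand outside this rule and were named after their values were seen. *Bax* and *Pmaip1* are in both the p53 target and the BCL2 list.

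Alternatives were RLE factors, library totals, no minimum count, filterByExpr, only the 4 libraries compared, the replicate number as a block, a prior count of 5, other thresholds, DESeq2 1.42.0 and each library left out in turn. The alternatives for the p53 target and proliferation lists and a crossed block were added after seeing the data. Tested on simulated data for day 10 against day 5 (22470 genes), the script recovered 199 of 200 genes changed 4-fold or more, with 1 false call. Recovery of smaller folds, which include many of those reported here, was not tested. The simulation gave all genes and libraries the same spread and changed only genes with a mean of at least 1 CPM. The replicates of these data spread unequally, so the simulation does not show how many false calls they give.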

Additional observations from a re-analysis of the deposited data

How the results depend on the processing

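With the further demand of more than 4-fold, 3, 2 and 2 of the 9 members passed for day 10 against day 5, day 20 against day 10 and day 20 against day 5, and 0, 2, 2 and 2 for CD organoids against day 10, day 20 and adult mCD and for adult mCD against day 20. Leaving out each library in turn, between 3 and 5 members passed for day 20 against day 5 (3 without replicate 1 of day 20) and between 5 and 6 for CD organoids against adult mCD (5 without CD organoid replicate 2 or adult replicate 1). Where 1 library is left out, the lone library of its group is assumed to vary like the other groups. Members whose difference did not pass and turned in sign with a library left out had log2 fold changes of -0.0733 to 0.154 (*Cdkn2c*) and -0.0166 to 0.0988 (*Trp53*) for day 10 against day 5, -0.0418 to 0.131 (*Cdkn1b*) and -0.0656 to 0.416 (*Cdkn2c*) for day 20 against day 10, -0.0511 to 0.448 (*Cdkn2c*) for day 20 against day 5 and -1.68 to 0.224 (*Cdkn2a*) for CD organoids against day 10. With library totals, *Cdkn1b* turned to -0.0139 for day 20 against day 10 and *Bbc3* to 0.302 for CD organoids against adult mCD, and the call for *Cdkn1a* at day 10 against day 5 was lost (edgeR adjusted p = 0.0116). With only the 4 libraries compared, the calls for *Cdkn1a* (edgeR adjusted p = 0.0485) and *Cdkn1b* (0.0172) at day 10 against day 5 and for *Cdkn2b* in CD organoids against day 10 (0.0276) were lost, and that for *Cdkn1b* in CD organoids against day 20 was gained (2.55e-04). RLE factors (edgeR adjusted p = 0.0160) and DESeq2 (0.0153) lost the call for *Cdkn2b* in adult mCD against day 20. Without the minimum count 4 calls were gained, among them *Cdkn1a* at day 20 against day 5 (edgeR adjusted p = 3.15e-05). Over all members and settings other than the thresholds, 717 values kept direction and call. Of these, 63 came from the prior count of 5, which acts on fold changes and not on p-values. A further 31 values lost the call, 7 gained it and 10 turned. The cause of these changes was not tested. Of the 16 proliferation genes, 8 fell from day 10 to day 20, but 5 with RLE factors, 4 with filterByExpr and 2 with only the 4 libraries compared.

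The labels number the replicates alike in every group, but the numbers share nothing else that is stated. Same-numbered libraries deviated from their group means with correlations between -0.102 and 0.167 over 11832 genes. The replicate block left 7, 5, 5, 6, 7, 8 and 9 members passing in the 7 comparisons, as without it, and changed no other call of the members. With the numbers of day 20 crossed, chosen after seeing the data, 5 members, 20 of the other p53 targets, 7 proliferation genes and 4508 genes in all passed for day 20 against day 10 (4510 with the block as labelled, 4565 without a block).

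Over all genes, 5432 passed for day 10 against day 5 and 4565 for day 20 against day 10, against 2184 and 2250 with only the 4 libraries compared. Without replicate 1 of day 5, 3586 passed for day 10 against day 5, and without replicate 1 or 2 of day 20, 2363 and 2331 passed for day 20 against day 10, where an adjusted p of at most 0.05 gave 7083. More than 4-fold left 832, 828, 2101, 2605, 2310, 3499 and 4688 genes in the 7 comparisons, from 5432, 4565, 8615, 9238, 8288, 9823 and 11728. The counts of *Cdkn2a* at day 5 and in adult mCD are too few to give more than a bound.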
